A study of Mus musculus with 6 samples.

Results

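The genes described here are 7 of the 31253 features counted in each library: Arg1, Arg2, Nos2, Slc7a2, Acod1, Ido1 and Il4i1, which encode enzymes of arginine, itaconate and tryptophan metabolism and the arginine transporter that supplies them. They were chosen by symbol for their known immunosuppressive roles, and all 7 were found. Their transcripts were counted by single-cell RNA-seq on the BD Rhapsody platform in 6 libraries of whole mouse liver. There were 2 libraries from control livers, with the genotype ctrl, and 2 each from livers with pre-metastatic niches and with a macro-metastatic niche, both labelled with the genotype of an orthotopic mouse model of colorectal cancer. All 6 libraries, controls included, carry the cell line label CT26-GFP, a mouse colon carcinoma line marked with green fluorescent protein. Strain, age, sex and time after implantation were not given in the sources used here. Nothing in the labels says that the 2 libraries of a group came from separate animals, so the p-values below measure the spread between these libraries, which may be technical. The model is 1 tumour line, and the liver preparation (collagenase digestion, red cell lysis and removal of dead cells) may recover cell types unequally.

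Arginine, tryptophan and cis-aconitate are substrates that myeloid cells consume under inflammatory or tumour conditions. Arg1 (cytosolic, also the last enzyme of the urea cycle in hepatocytes) and Arg2 (mitochondrial) split arginine into ornithine and urea, while Nos2 turns the same substrate into nitric oxide, and Slc7a2 carries cationic amino acids such as arginine into the cell. Ido1 opens the kynurenine pathway by oxidising tryptophan, and Il4i1 is a secreted amino acid oxidase that acts on phenylalanine and tryptophan. Acod1 decarboxylates cis-aconitate from the tricarboxylic acid cycle into itaconate, which inhibits succinate dehydrogenase. Loss of arginine or tryptophan and gain of their products are known to restrain T cells.

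Cells were assigned from marker genes that include no member. Of 65092 cells kept, 25232 fell in 5 classes: 9015 neutrophils, 7843 Kupffer cells (macrophages that reside in the liver sinusoids), 4236 other monocytes and macrophages (called macrophages below), 2283 hepatocytes and 1855 dendritic cells. Every library held all defining markers of each class in that class, except Gpnmb, which had no UMI in macrophages of control replicate 1. The cells were assigned by these same markers, so this describes the classes and does not check them. A UMI is 1 tagged RNA molecule. Library totals were 44976402 and 41914149 UMIs in control livers, 48764379 and 51750676 in pre-metastatic livers and 88986627 and 90819751 in macro-metastatic libraries, and the last pair was the deepest. Class sizes differed too. Macrophages numbered 71 and 88 in control livers, 914 and 361 in pre-metastatic livers and 1995 and 807 in macro-metastatic libraries. Hepatocytes numbered 570 and 449 in control livers, 646 and 554 in pre-metastatic livers and 12 and 52 in macro-metastatic libraries, and every hepatocyte value of the last pair rests on those few cells. Depth per cell followed the libraries, with a median of 8227 and 6643 UMIs per macrophage in macro-metastatic, and 4294 and 3803.5 in control libraries. Cells sharing a barcode sequence across any pair of libraries numbered 94 to 201.

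Promoter sequences are shown for the 2 members with an entry in the RefSeq promoter table (build GRCm38.p6, the same coordinates as mm10), because Acod1 is one of the members called in 4 of the 5 classes and Il4i1 one of the least abundant. Each line is the 300-base window of 250 bases before to 50 after the start site, 5′ to 3′ on the plus strand, at chr14:103046762-103047061 for Acod1 and chr7:44836038-44836337 for Il4i1, with motif matches in capitals. The RefSeq start sites lie inside the GENCODE spans given further on.
Acod1: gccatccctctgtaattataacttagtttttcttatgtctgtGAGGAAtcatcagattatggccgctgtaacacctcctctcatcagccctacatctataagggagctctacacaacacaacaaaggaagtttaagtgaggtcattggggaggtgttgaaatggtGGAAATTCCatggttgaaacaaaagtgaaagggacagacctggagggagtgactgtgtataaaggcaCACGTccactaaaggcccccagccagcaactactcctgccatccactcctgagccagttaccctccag
Il4i1: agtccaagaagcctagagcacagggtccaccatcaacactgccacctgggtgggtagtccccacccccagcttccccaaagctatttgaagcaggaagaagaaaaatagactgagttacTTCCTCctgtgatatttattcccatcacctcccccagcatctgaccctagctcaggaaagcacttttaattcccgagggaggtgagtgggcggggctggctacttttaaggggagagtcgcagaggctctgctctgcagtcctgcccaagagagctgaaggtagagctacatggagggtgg
In all, 8 letter patterns were searched on both strands. The Acod1 window held the PU.1 pattern GAGGAA at -208 from the start site, the NF-kB pattern GGNNNTTCC at -85, where the letters GGAAATTCC fit the pattern read on either strand, and the hypoxia element ACGTG on the minus strand at -18. The Il4i1 window held the PU.1 pattern alone, on the minus strand at -131. Neither window held GAS (TTCNNNGAA), ISRE (GAAA and GAAA with 2 bases between), STAT6 (TTC and GAA with 4 bases between), C/EBP (TTGCNNAA) or AP-1 (TGANTCA) letters. Among all 32851 windows of 27025 genes, the PU.1 pattern was present in 28.3%, the NF-kB pattern in 18.5% and ACGTG in 19.6%. The shares for the 5 patterns with no match were 8.30% for GAS, 3.44% for ISRE, 6.95% for STAT6, 10.8% for C/EBP and 7.81% for AP-1. A match describes letters and not binding.

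The members lie on separate loci of mm10 in the GENCODE M21 annotation: Arg1 at chr10:24915221-24927484 (minus strand), Arg2 at chr12:79130777-79156301, Nos2 at chr11:78920787-78960254, Slc7a2 at chr8:40862396-40922308, Acod1 at chr14:103046977-103056573, Ido1 at chr8:24584136-24597009 (minus strand) and Il4i1 at chr7:44816387-44840809, the remainder on the plus strand. Arg2 overlaps the antisense gene Gm48780 and Vti1b, and Il4i1 overlaps Nup62 on its own strand and Atf5 and Tbc1d17 on the other. Counts of Arg2 and, above all, of Il4i1 are uncertain to the extent that reads of these neighbours were assigned to them.

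The members occupied different cells. Levels below are in CPM, a gene's UMIs per 1000000 UMIs of that class in that library. Over the 6 libraries, Arg1 was highest in hepatocytes (median 2047 CPM, 1502 to 2642), followed by macrophages (median 86.4), and Kupffer cells, neutrophils, B cells and dendritic cells had overlapping ranges with medians between 5.65 and 9.22 CPM. Arg2 was highest in neutrophils (median 1193, 973 to 1550 CPM), above macrophages (308, 68.2 to 436 CPM) and Kupffer cells (283, 179 to 460 CPM), whose ranges overlapped. Acod1 was highest in neutrophils (2962, 960 to 6419 CPM), and its ranges in macrophages, Kupffer cells and dendritic cells overlapped, with medians of 68.2, 21.1 and 12.7 CPM. Basophils and mast cells, outside the 5 classes, had 1153 CPM (242 to 7776), a range that overlapped that of neutrophils. Slc7a2 was highest in hepatocytes (median 195 CPM) and next in macrophages (18.6 CPM). Nos2, Ido1 and Il4i1 were rare, with medians of at most 3.64 CPM in any class.

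The cells that held a member's transcripts changed with the library as well as with the level per cell. In macro-metastatic libraries 0.356% and 2.02% of all Arg1 UMIs were in hepatocytes and 57.6% and 56.9% in macrophages, whereas hepatocytes held 83.4% and 78.9% of Arg1 UMIs in control libraries. Cells of no class held 35.4% and 31.7% in macro-metastatic, 28.9% and 17.9% in pre-metastatic and 12.4% and 16.8% in control libraries. Over all 6 libraries, 236, 381 and 77 of these cells lay in clusters named hepatocyte and held 1921, 5109 and 153 Arg1 UMIs. The hepatocyte shares leave these out. Total Arg1 UMIs per library were 7020 and 10256 in macro-metastatic and 8133 and 5923 in control livers. Neutrophils held 75.5% and 78.2% of all Acod1 UMIs in macro-metastatic libraries, against 48.7% and 68.0% in control libraries, and the totals were 71840 and 39349 UMIs against 271 and 441. Kupffer cells held the largest class share of Arg2 in all 6 libraries, from 36.1% to 64.2%. Whether a library's total reflects more cells or more RNA per cell cannot be read from the total, which is why the tests below are within classes.

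**Figure D1:**
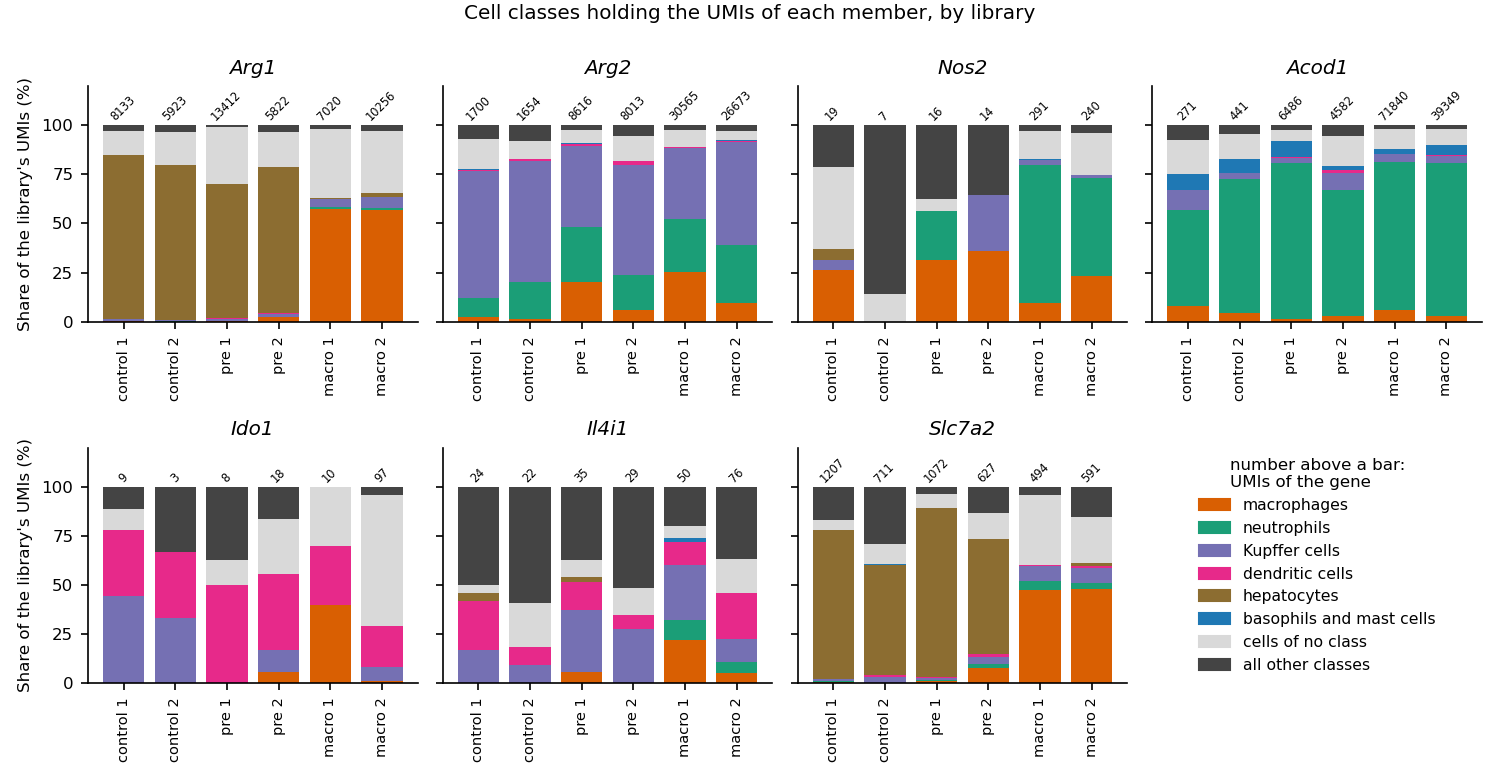
Stacked bars give the share (percent) of each member's UMIs that fell in each cell class, for each of the 6 libraries, with the total UMIs above each bar. The Arg1 bars are filled mostly by hepatocytes in control and pre-metastatic libraries, and by macrophages and unassigned cells in the macro-metastatic pair. Unassigned cells also fill 28.9% of the Arg1 bar in pre-metastatic replicate 1.

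In the comparison of macro-metastatic with control livers, 23 of the 35 pairs of a member and a class had enough counts to be tested, and 9 passed an adjusted p of 0.05, 8 higher and 1 lower (edgeR quasi-likelihood test on UMI sums per library and class, Benjamini-Hochberg over all genes of the class). All 8 rises were of Arg2 or Acod1. The 12 pairs not tested were Nos2 in Kupffer cells, dendritic cells and hepatocytes, Ido1 and Il4i1 everywhere but in dendritic cells, and Slc7a2 in dendritic cells. Acod1 and Arg2 in hepatocytes, Acod1 in dendritic cells and Nos2 in neutrophils passed the filter on low counts through the metastatic libraries, where they were higher, so the counts and medians here describe the members and support nothing. By class, 1 of 5 tested members passed in macrophages, where 7.33% of all 10716 genes tested did (5.44% higher and 1.89% lower). In neutrophils 1 of 5 passed, against 9.82% of 7790 genes (5.34% higher, 4.48% lower). In Kupffer cells 2 of 4 passed, against 35.2% of 13004 genes (19.2% higher, 15.9% lower), so a call in this class was common. In dendritic cells 2 of 5 passed, against 11.4% of 10315 genes (8.11% higher, 3.27% lower), and in hepatocytes 3 of 4 did, against 11.9% of 9168 genes (6.87% higher, 4.98% lower). The median log2 fold change of the tested members was 2.02 in macrophages (0.06 over all genes), -0.02 in neutrophils (0.10), 1.17 in Kupffer cells (0.01), 0.66 in dendritic cells (0.00) and 3.32 in hepatocytes (-0.29). In hepatocytes the fold changes of members are to be read against that general shift.

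Between pre-metastatic and control livers, 2 of 23 pairs passed, both higher and both in hepatocytes (2 of 4 members, against 3.9% of all genes, 2.64% higher and 1.27% lower). With DESeq2, 1 of the 4 members passed in hepatocytes, where it called 90 of 9168 genes. In macrophages, neutrophils, Kupffer cells and dendritic cells 0 members passed in edgeR after adjustment, where the shares of all genes were 0.0%, 0.0%, 0.308% (0.2% higher, 0.108% lower) and 0.0%. At an unadjusted p under 0.05, 1, 1, 3 and 2 members of these classes passed, and 1 in each passed with DESeq2. Over all genes, 751, 602, 1516 and 1088 had an unadjusted p under 0.05, and DESeq2 called 26, 27, 233 and 68. Between macro-metastatic and pre-metastatic livers, 8 of 23 pairs passed, 7 higher and 1 lower. They were 2 of 5 in neutrophils (9.46% of all genes, 5.24% higher and 4.22% lower), 3 of 4 in Kupffer cells (31.2%, 17.6% higher and 13.6% lower) and 3 of 4 in hepatocytes (7.13%, 4.69% higher and 2.44% lower). In macrophages (8.91%, 7.27% higher and 1.64% lower) and dendritic cells (13.5%, 9.6% higher and 3.92% lower) 0 members passed in edgeR, 2 and 1 had an unadjusted p under 0.05, and DESeq2 called 1 in each. The comparisons of macro-metastatic livers with each of the other groups share the macro-metastatic libraries, and the comparisons with control livers share the controls.

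**Figure D2:**
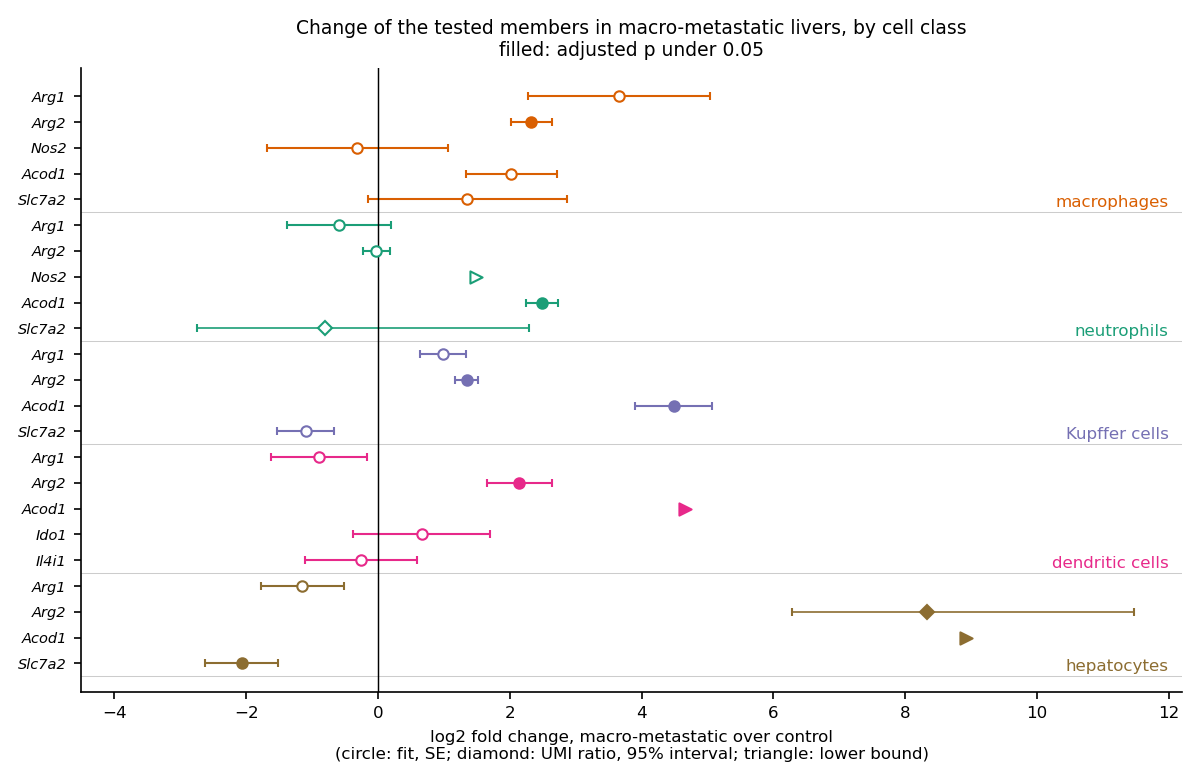
Log2 fold changes of each tested member, macro-metastatic over control, in the 5 classes. Circles with SE bars are fitted values, diamonds are UMI ratios with their 95% interval where controls held 1 to 3 UMIs, triangles are lower bounds where controls held none, and filled symbols passed an adjusted p of 0.05. Arg2 and Acod1 fill the right-hand side, and the filled symbol on the left is Slc7a2 in hepatocytes.

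Acod1, the itaconate enzyme, showed the widest change. In neutrophils it measured 960 and 1158 CPM in control livers, 2757 and 3166 CPM in pre-metastatic livers and 6419 and 4563 CPM in macro-metastatic libraries. The 3 groups did not overlap. The macro-metastatic level was higher than control by a log2 fold change of 2.49 ± 0.25 (± SE throughout; adjusted p = 0.00104, edgeR), with scaled means of 5741 ± 1382 against 1019 ± 145 CPM (SD, n = 2 each; scaled by TMM, the trimmed mean of M-values). It was also higher than pre-metastatic by 0.92 ± 0.23 (adjusted p = 0.0343, edgeR), a call lost without any 1 library other than macro-metastatic replicate 2 (adjusted p = 0.168 without macro-metastatic replicate 1, 0.201 and 0.135 without pre-metastatic replicates 1 and 2, and 0.0569 and 0.0585 without control replicates 1 and 2). The pre-metastatic difference from control, 1.57 ± 0.24, did not pass (adjusted p = 0.169, edgeR), although both pre-metastatic libraries lay above both controls. It passed with DESeq2 (adjusted p = 7.52e-07) and in the blocked fit on replicate numbers (adjusted p = 0.00199).

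The share of neutrophils with an Acod1 UMI followed the same order. It was 40.4% (95% Wilson interval 31.6 to 49.8%) and 46.2% (39.6 to 52.9%) in control livers, 77.9% (75.5 to 80.1%) and 75.6% (72.6 to 78.5%) in pre-metastatic livers and 95.8% (95.1 to 96.5%) and 95.02% (94.2 to 95.7%) in macro-metastatic libraries. These and all later intervals cover counting error only. After every cell was thinned to 1000 UMIs, so that depth was equal, the shares were 40.8% and 45.4% in control livers, 74.3% and 76.3% in pre-metastatic livers and 92.1% and 90.5% in macro-metastatic libraries. Thinning left out 33 and 58, 266 and 332, and 70 and 131 shallower neutrophils of these groups. In B cells of the same libraries, which should lack the gene, the unthinned shares were 0.230% and 0.174% in control livers, 1.92% and 1.15% in pre-metastatic livers and 23.0% and 9.23% in macro-metastatic libraries, at a median of 2185.5 and 2295.5 UMIs per macro-metastatic B cell beside 2185 and 1870 per macro-metastatic neutrophil. The neutrophil share exceeded the B cell share in every library.

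In Kupffer cells Acod1 measured 4.43 and 2.86 CPM in control livers, 12.1 and 30.0 CPM in pre-metastatic livers and 95.8 and 47.6 CPM in macro-metastatic libraries, without overlap. The macro-metastatic level was higher than control by 4.49 ± 0.59 (adjusted p = 0.000747, edgeR) and higher than pre-metastatic by 1.95 ± 0.45 (adjusted p = 0.0123, edgeR), which was lost without pre-metastatic replicate 1 (1.44, adjusted p = 0.0667). The pre-metastatic difference from control was 2.53 (adjusted p = 0.176, edgeR). The share of Kupffer cells with a UMI was 49.97% and 29.9% in macro-metastatic and 2.40% and 1.84% in control libraries, and after thinning 8.06% and 4.90% against 0.366% and 0.570%. The thinned Kupffer shares stood below the thinned macro-metastatic B cell share of 11.2% in replicate 1 and above its 3.32% in replicate 2.

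In macrophages Acod1 measured 58.9 and 56.8 CPM in control livers, 16.8 and 77.6 CPM in pre-metastatic livers and 241 and 169 CPM in macro-metastatic libraries. Both macro-metastatic libraries were the highest, while the other groups overlapped. After thinning, 17.1% and 8.40% of macro-metastatic macrophages had a UMI, above B cells of the same library, and 5.80% and 3.49% of control macrophages did. The difference from control, 2.02, did not pass (adjusted p = 0.125, edgeR), nor did the difference of 2.38 from pre-metastatic (adjusted p = 0.0562, edgeR). The first passed without pre-metastatic replicate 1 (adjusted p = 0.0145) or 2 (0.0134). The second passed in the fit with the replicate block (2.57, adjusted p = 0.0435), with DESeq2 (0.0105), with predicted doublets kept (0.0253) and without pre-metastatic replicate 1 (0.0376) or 2 (0.00471). In dendritic cells no Acod1 UMI was found in control libraries and the level was 6.31 and 19.2 CPM in pre-metastatic livers and 74.6 and 27.6 CPM in macro-metastatic libraries, where 281 UMIs were counted. The macro-metastatic level was at least 25.2-fold higher, taking 3 UMIs over the control group as the floor that a count of 0 allows (adjusted p = 0.0218, edgeR). This call was lost without macro-metastatic replicate 1 (adjusted p = 0.0664), control replicate 1 (0.105) or control replicate 2 (0.106). In hepatocytes 0 and 0 UMIs were counted in control livers, 21 and 8 in pre-metastatic livers and 8 and 35 in macro-metastatic libraries. That is at least 485-fold higher in macro-metastatic (adjusted p = 2.45e-41, edgeR) and at least 7.60-fold higher in pre-metastatic hepatocytes than in control (adjusted p = 2.42e-05, edgeR). The pre-metastatic call was lost without macro-metastatic replicate 1 (adjusted p = 0.0637), macro-metastatic replicate 2 (0.0913) or control replicate 1 (0.0547). In hepatocytes the fit gave genes of like abundance the same spread, with infinite prior degrees of freedom, which makes these p-values small.

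Neutrophil transcripts moved in the same direction in every other class. The 15 neutrophil markers summed to 4415 and 2395 CPM in macro-metastatic hepatocytes, against 33.5 and 22.0 CPM in control hepatocytes. In macro-metastatic B cells they summed to 1074 and 670 CPM, against 38.8 and 76.8 CPM in control B cells. In macrophages the sums were 3354 and 2406 CPM against 252 and 469 CPM, in Kupffer cells 725 and 457 against 133 and 119, and in dendritic cells 1385 and 857 against 115 and 129. All 15 markers were detected in macro-metastatic macrophages, Kupffer, dendritic and B cells. In macro-metastatic hepatocytes 9 and 14 of 15 were detected, with Cxcr2, Mmp9, Ly6g, Stfa2l1, Mmp8 and Ltf at 0 in replicate 1 and Ltf at 0 in replicate 2. The same hepatocytes held Kupffer markers at 2126 and 987 CPM and endothelial markers at 2207 and 2446 CPM, each above the control range. The part of these transcripts in the Acod1 and Arg2 results outside neutrophils was not tested, nor was their part in any other gene's rise in hepatocytes given further on.

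Per 1000 neutrophil-marker UMIs, neutrophils held 64.8 and 49.5 Acod1 UMIs in the macro-metastatic libraries. Macrophages held 71.8 and 70.4 and Kupffer cells 132 and 104. Dendritic cells, at 53.8 and 32.2, held fewer than the neutrophils of the same library, B cells held 105 and 67.6, and hepatocytes held 148 and 106. Kupffer cells, hepatocytes, macrophages and B cells were above the neutrophils of the same library in both libraries, and dendritic cells were below them.

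**Figure D3:**
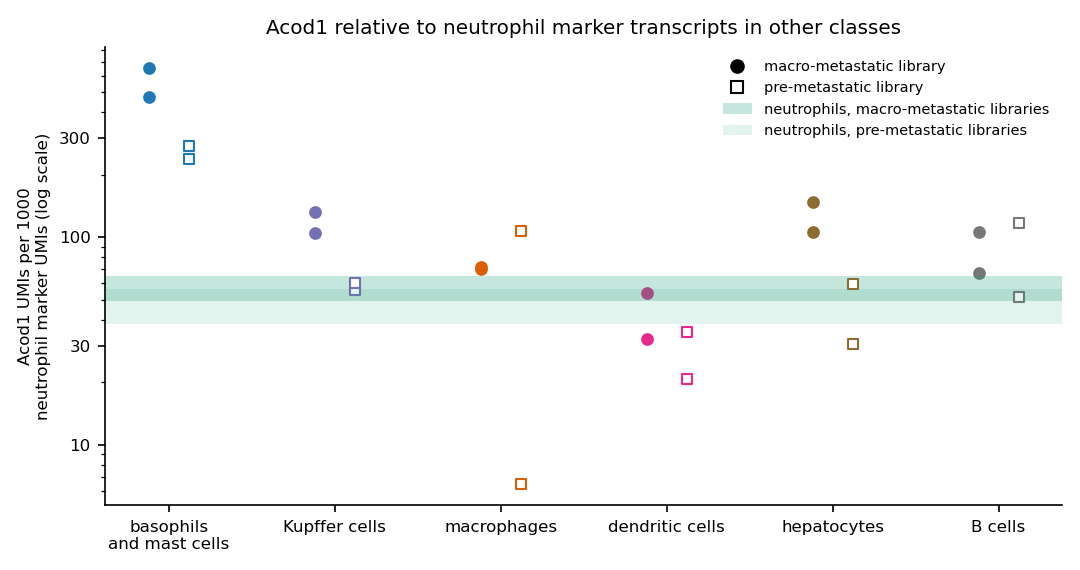
Acod1 UMIs per 1000 neutrophil-marker UMIs (log axis) in each class, with filled circles for macro-metastatic and open squares for pre-metastatic libraries and a band marking the neutrophils. Basophils and mast cells stand highest, and macrophages and dendritic cells lie near the neutrophil band in the macro-metastatic libraries.

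Changes in B cells were set beside those in these classes. Acod1 stood at 1.34 to 113 CPM in B cells and at 960 to 6419 CPM in neutrophils. At such unlike levels, a difference of log2 changes does not measure the part of stray RNA in neutrophils. On the log2 scale the rise in neutrophils was smaller than that in B cells by 2.47 ± 0.73 (edgeR interaction of class and group, difference -2.47, adjusted p = 0.0431). Leaving out macro-metastatic replicate 1 (adjusted p = 0.163), control replicate 1 (0.160) or control replicate 2 (0.339) ended that call. The difference from B cells did not pass for Kupffer cells (-0.97, adjusted p = 0.580) or macrophages (-3.40, adjusted p = 0.0664; edgeR). Control B cells held 3 Acod1 UMIs and macro-metastatic ones 95, a UMI ratio of 38.1 (12.6 to 188), so each of these differences rests on few control counts. For dendritic cells, with no control UMI, no difference is given.

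**Figure D4:**
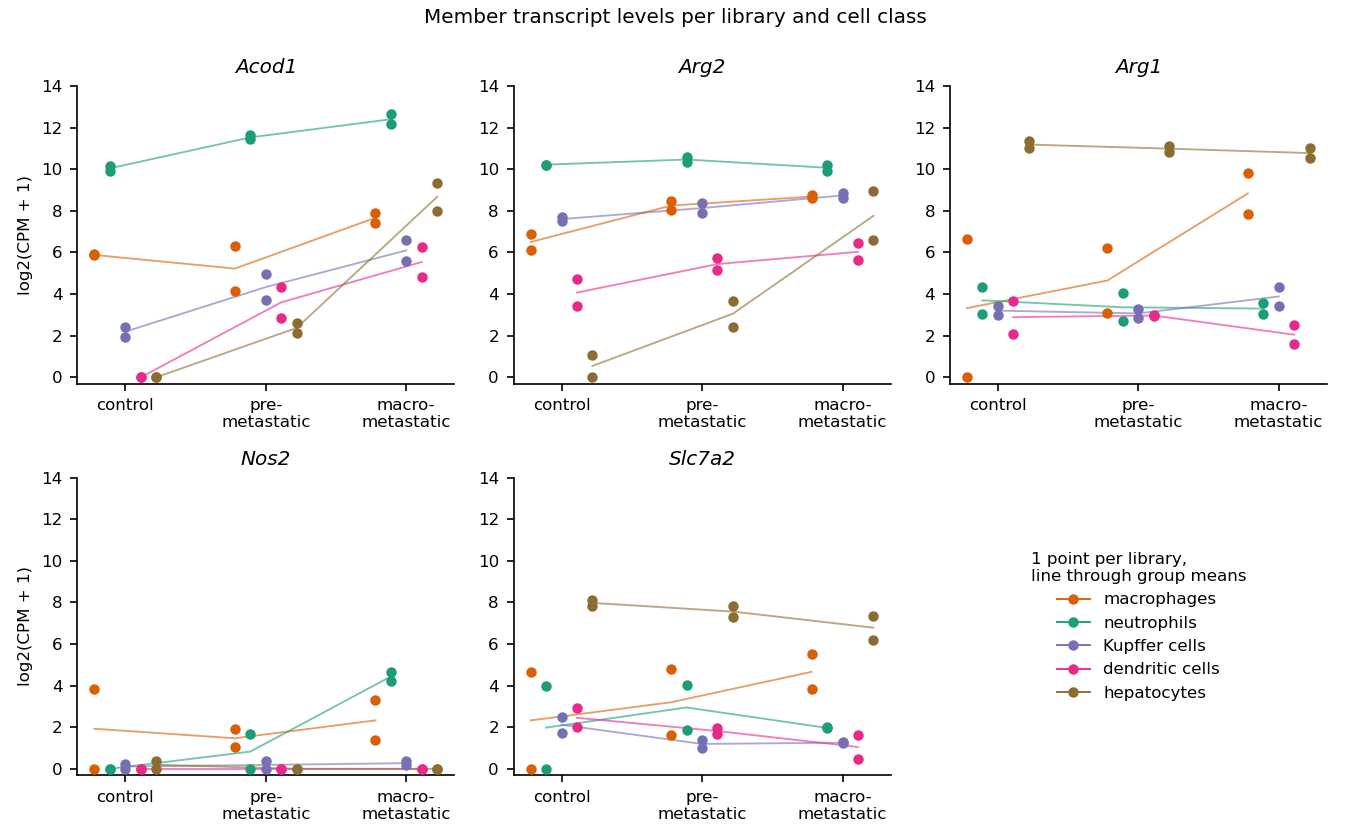
Levels of Acod1, Arg2, Arg1, Nos2 and Slc7a2 as log2(CPM + 1) in control livers, pre-metastatic and macro-metastatic libraries, with 1 point per library, lines through the group means and a colour for each class. Acod1 is highest in the macro-metastatic libraries in every class, while Arg2 in neutrophils stays between 973 and 1550 CPM.

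Arg2, the mitochondrial arginase, was higher in 4 classes, and no change was called in neutrophils, the class that expressed it most. In macrophages it measured 118 and 68.2 CPM in control livers, 357 and 259 CPM in pre-metastatic livers and 436 and 386 CPM in macro-metastatic libraries, and the groups did not overlap. The macro-metastatic level was higher than control by 2.33 ± 0.30 (adjusted p = 0.0117, edgeR), with scaled means of 451 ± 55.8 against 89.6 ± 35.7 CPM (SD, n = 2 each). The pre-metastatic difference of 1.73 from control did not pass (adjusted p = 0.701, edgeR). The macro-metastatic call was lost when any of the 4 macro-metastatic and control libraries was left out, at 2.17 (adjusted p = 0.104) without macro-metastatic replicate 1, 2.43 (0.062) without replicate 2, 2.78 (0.0736) without control replicate 1 and 1.97 (0.0714) without control replicate 2.

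In Kupffer cells Arg2 measured 179 and 209 CPM in control livers, 239 and 327 CPM in pre-metastatic livers and 395 and 460 CPM in macro-metastatic libraries. Again the groups did not overlap. It was higher in macro-metastatic than in control Kupffer cells by 1.35 ± 0.17 (adjusted p = 0.000673, edgeR) and than in pre-metastatic ones by 0.76 ± 0.17 (adjusted p = 0.0104, edgeR), and the pre-metastatic comparison did not pass without pre-metastatic replicate 1 (0.55, adjusted p = 0.0735). The share of Kupffer cells with a UMI after thinning was 16.5% and 19.0% in control livers, 19.6% and 26.9% in pre-metastatic livers and 32.1% and 37.4% in macro-metastatic libraries. In macrophages the thinned shares were 15.9% and 9.30%, 29.8% and 23.9%, and 36.4% and 35.7% in the same order. The thinned Arg2 share of B cells was 5.29% and 2.42% in macro-metastatic and 1.04% and 0.587% in control libraries, below both classes in each.

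In dendritic cells Arg2 measured 25.2 and 9.81 CPM in control livers, 34.5 and 52.2 CPM in pre-metastatic livers and 85.7 and 48.2 CPM in macro-metastatic libraries. The macro-metastatic libraries overlapped the pre-metastatic ones and lay above the controls. The macro-metastatic level was higher than control by 2.15 ± 0.49 (adjusted p = 0.0304, edgeR). Leaving out macro-metastatic replicate 1, control replicate 1 or control replicate 2 ended this call (adjusted p = 0.125, 0.0749 and 0.160). Of the dendritic subsets, type 2 cells (139 CPM over all libraries) and mature cells (125 CPM) held more Arg2 than type 1 cells (16.4 CPM). In hepatocytes 0 and 2 Arg2 UMIs were counted in control livers, 18 and 28 in pre-metastatic livers and 6 and 13 in macro-metastatic libraries. The UMI ratio to control was 322 (95% counting interval 77.6 to 2847) in macro-metastatic hepatocytes (adjusted p = 2.18e-18, edgeR) and 18.1 (4.73 to 154) in pre-metastatic ones (adjusted p = 2.16e-05, edgeR), with the neutrophil and Kupffer markers above beside it. The macro-metastatic call was lost without macro-metastatic replicate 2 (adjusted p = 0.0589), and the pre-metastatic one without macro-metastatic replicate 1 (0.123), macro-metastatic replicate 2 (0.127) or control replicate 1 (0.131).

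In neutrophils Arg2 measured 1193 and 1193 CPM in control livers, 1289 and 1550 CPM in pre-metastatic livers and 973 and 1186 CPM in macro-metastatic libraries. Both macro-metastatic libraries lay below both controls before TMM scaling, replicate 2 by little, and the fitted difference was -0.02 ± 0.20 (adjusted p = 0.960, edgeR). The change in macrophages exceeded that in neutrophils by 1.92 ± 0.36 (adjusted p = 0.0456, edgeR interaction), and not without control replicate 1 (adjusted p = 0.204) or control replicate 2 (0.295). Between macro-metastatic and pre-metastatic livers, the change in neutrophils was below that in Kupffer cells (-0.99 ± 0.25, adjusted p = 0.0210, edgeR interaction), and this did not pass without macro-metastatic replicate 1 (0.102), pre-metastatic replicate 1 (0.173) or control replicate 1 (0.0555). Against B cells, no difference of change passed for Arg2 in macrophages (0.48, adjusted p = 0.795), Kupffer cells (-0.52, adjusted p = 0.557) or dendritic cells (0.28, adjusted p = 0.891; edgeR). Macro-metastatic macrophages held 7737 and 2474 Arg2 UMIs, where the neutrophil ratio applied to their marker UMIs gives 585 and 198. Kupffer cells held 11039 and 13935, where the same ratio gives 199 and 178. The ratio counts neutrophil RNA only, and B cells of the same libraries held 28 and 24 Arg2 UMIs. The part of stray RNA from neutrophils or Kupffer cells in these Arg2 values was not tested.

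Arg1, the cytosolic arginase, was abundant in hepatocytes at every stage, at 2050 and 2642 CPM in control livers, 2252 and 1832 CPM in pre-metastatic livers and 2044 and 1502 CPM in macro-metastatic libraries. The pre-metastatic range overlapped both others, and both macro-metastatic libraries lay below both controls, replicate 1 by little. The difference between macro-metastatic and control hepatocytes was -1.15 (adjusted p = 0.248, edgeR) and -0.45 without TMM scaling, and it did not pass in either. It passed with DESeq2 (-1.07, adjusted p = 0.0208). In macrophages Arg1 measured 99.05 and 0 CPM in control livers, 7.46 and 73.7 CPM in pre-metastatic livers and 228 and 912 CPM in macro-metastatic libraries. Both macro-metastatic libraries were above all others, but the 2 libraries of each group were far apart. The difference from control, 3.66 ± 1.38, did not pass (adjusted p = 0.154, edgeR), nor did that from pre-metastatic, 4.07 (adjusted p = 0.0930, edgeR). With the stricter marker gate both passed, at 6.01 against control (adjusted p = 0.0276) and 6.13 against pre-metastatic (adjusted p = 0.00678, edgeR). The difference from pre-metastatic also passed without pre-metastatic replicate 2 (6.42, adjusted p = 0.0398, edgeR).

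Arg1 was concentrated in few of the gated macrophages. Cells of no class held 35.4% and 31.7% of all Arg1 UMIs in the macro-metastatic libraries and are not part of the values here. Over all 6 libraries, 414 of these cells lay in a cluster named macrophage and held 5204 Arg1 UMIs. Of 37 UMIs in macrophages of control replicate 1, 1 cell held 32. In macro-metastatic macrophages 87 of 1995 cells (4.36%) and 54 of 807 cells (6.69%) had at least 10 Arg1 UMIs, and they held 3569 of 4044 and 5676 of 5840 UMIs, or 88.3% and 97.2%. The share of macrophages with any Arg1 UMI was 12.7% and 13.4% in macro-metastatic and 7.04% and 0% in control libraries (0 of 88 cells in control replicate 2, which allows a share of up to 3.41%), and 6.25% and 7.87% against 2.90% and 0% after thinning. Hepatocyte markers in macro-metastatic macrophages summed to 87.9 and 99.8 CPM, against 565 and 400 CPM in control macrophages. The Arg1 change in macrophages minus that in B cells was 5.41 ± 1.22 (adjusted p = 0.0470, edgeR interaction), where B cells held 6 UMIs in macro-metastatic and 18 in control libraries. Leaving out macro-metastatic replicate 2 (3.84, adjusted p = 0.363), control replicate 1 (adjusted p = 0.117) or control replicate 2 (4.73, adjusted p = 0.145) ended that call, as did leaving out cells over 0.5% hepatocyte marker UMIs (5.10, adjusted p = 0.0773).

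Kupffer cells held little Arg1, at 9.67 and 6.94 CPM in control livers, 8.78 and 6.21 CPM in pre-metastatic livers and 9.66 and 19.4 CPM in macro-metastatic libraries. Both macro-metastatic libraries lay above the pre-metastatic ones, and replicate 1 lay within the control range. The difference from pre-metastatic, 1.11 ± 0.33, passed (adjusted p = 0.0343, edgeR), and that from control, 0.99, did not (adjusted p = 0.0608, edgeR), though it did without macro-metastatic replicate 1 (1.37, adjusted p = 0.00316). In macro-metastatic replicate 2, 7 of 2241 Kupffer cells held 357 of the 588 UMIs and 1 cell held 154 of them. Before doublets were removed, the Kupffer gate held 124 cells of the Arg1-rich macrophage cluster described at the end. Their part in these values was not tested. With predicted doublets kept the difference from pre-metastatic was 0.07 (adjusted p = 0.891), and the call passed in 5 of 15 alternatives. The change in Kupffer cells minus that in B cells was 2.41 ± 0.74 (adjusted p = 0.0281, edgeR interaction). B cells held 6 Arg1 UMIs in macro-metastatic and 18 in control libraries, a UMI ratio of 0.401 (0.130 to 1.05), against 1.74 (1.41 to 2.18) in Kupffer cells, so the lower B cell level is part of that difference. It did not pass without macro-metastatic replicate 2 (1.74, adjusted p = 0.448), without control replicate 1 (2.18, adjusted p = 0.269), with classes taken from clusters (1.11, adjusted p = 0.304), with the stricter marker gate (1.91, adjusted p = 0.416) or without cells over 0.5% hepatocyte marker UMIs (2.25, adjusted p = 0.0626).

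Neutrophils held Arg1 at 7.27 and 19.3 CPM in control livers, 15.5 and 5.42 CPM in pre-metastatic livers and 7.22 and 10.8 CPM in macro-metastatic libraries, and dendritic cells at 11.8 and 3.27, 7.05 and 6.60, and 1.99 and 4.70 CPM. The groups overlapped in neutrophils. In dendritic cells the control range held all other libraries but macro-metastatic replicate 1, and both macro-metastatic libraries lay below both pre-metastatic ones. B cells stood at 4.11 to 14.7 CPM, and no comparison passed.

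Macrophages with an Arg1 UMI also held more of the arginine transporter gene. In macro-metastatic libraries, 45 of 254 (17.7%) and 37 of 108 (34.3%) macrophages with an Arg1 UMI had an Slc7a2 UMI, against 88 of 1741 (5.05%) and 35 of 699 (5.01%) of those without. Slc7a2 measured 28.1 and 128 CPM in the cells with Arg1 and 9.76 and 14.4 CPM in those without. The cells with Arg1 were deeper, with a median of 12674.5 and 15391.5 UMIs against 7895 and 6392, so neither the shares nor the CPM values compare cells of equal depth, and the cells were picked by holding a UMI. Arg2 went the other way, at 292 and 235 CPM in cells with Arg1 and 469 and 440 CPM in those without. Acod1 was at 277 and 273 CPM against 233 and 133 CPM. These are descriptions of 2 libraries, and cells are not replicates. Macrophages with a Nos2 UMI were 20 and 12 cells, and held Acod1 at 796 and 547 CPM against 235 and 159 CPM in the others.

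**Figure D5:**
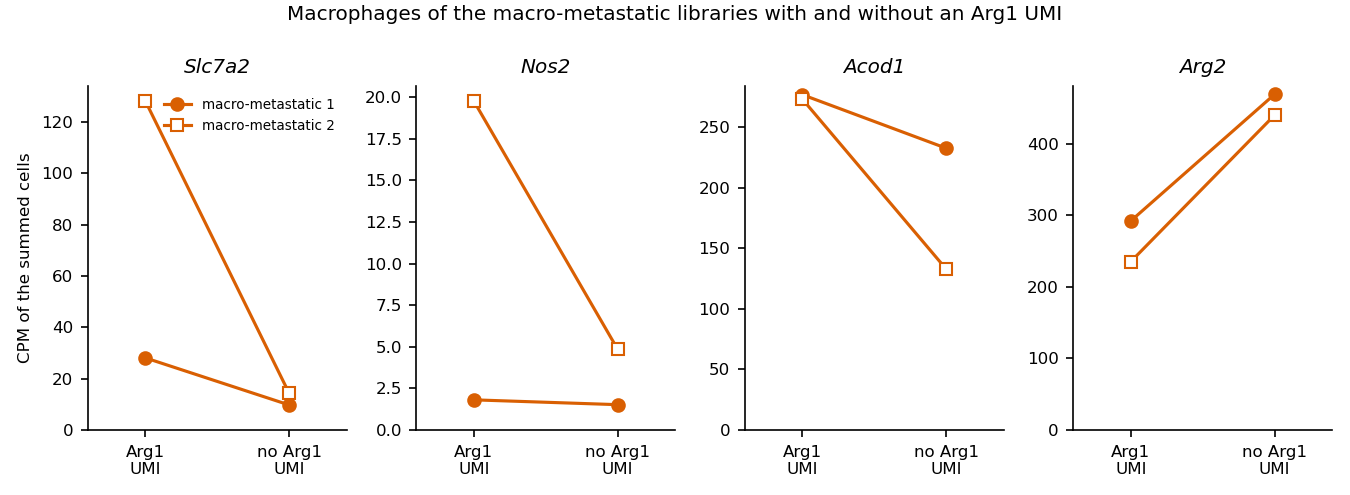
CPM of Slc7a2, Nos2, Acod1 and Arg2 in macrophages with and without an Arg1 UMI, in macro-metastatic replicates 1 and 2. Slc7a2 is higher and Arg2 lower in the cells with Arg1, in both libraries.

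Nos2, the inducible nitric oxide synthase, was found in few neutrophils and then mainly at the macro-metastatic stage. Neutrophils held 0 and 0 Nos2 UMIs in control livers, 4 and 0 in pre-metastatic livers and 204 and 119 in macro-metastatic libraries, or 24.1 and 17.7 CPM in macro-metastatic and 2.14 and 0 CPM in pre-metastatic ones. Both macro-metastatic libraries stood above the others. Of macro-metastatic neutrophils, 120 of 3212 (3.74%, 3.13 to 4.45%) and 75 of 3395 (2.21%, 1.77 to 2.76%) had a UMI, or 1.97% and 0.9804% after thinning, and the highest cell had 9. In B cells of these libraries, 0.575% and 0.298% had one. The level was higher than in pre-metastatic neutrophils by 3.91 ± 0.73 (adjusted p = 0.0130, edgeR), and the call was lost without pre-metastatic replicate 1 (adjusted p = 0.0526) or replicate 2 (0.0683). Against control, with 0 UMIs, it was at least 2.81-fold higher, and the test did not pass (adjusted p = 0.0561, edgeR). It passed with the replicate block (adjusted p = 0.0201). In macrophages Nos2 measured 13.4 and 0 CPM in control livers, 1.04 and 2.75 CPM in pre-metastatic livers and 1.58 and 8.75 CPM in macro-metastatic libraries, and the difference from control was -0.31 (adjusted p = 0.919, edgeR). Of the 56 Nos2 UMIs in macrophages of macro-metastatic replicate 2, 3 cells held 41. Nos2 had a UMI in 0 of 1855 dendritic cells, which allows a share of up to 0.162%.

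Slc7a2, the cationic amino acid transporter, was the member called lower, in hepatocytes. Hepatocytes measured 277 and 226 CPM in control livers, 226 and 155 CPM in pre-metastatic livers and 164 and 72.6 CPM in macro-metastatic libraries. The macro-metastatic values rest on 2 and 10 UMIs. Unscaled group means were 118 CPM in macro-metastatic and 252 CPM in control hepatocytes. After TMM scaling the libraries measured 79.7 and 71.6 CPM against 360 and 253 CPM, so the fitted fall below is larger than the unscaled one. Of the macro-metastatic libraries, replicate 1 lay inside the pre-metastatic range and both lay below control. The level fell by 2.07 on the log2 scale against control (SE 0.56, adjusted p = 0.00423, edgeR), and by 1.70 against pre-metastatic (SE 0.57, adjusted p = 0.0413, edgeR), while all genes had a median of -0.29 and -0.31. The first call was lost without macro-metastatic replicate 1 (adjusted p = 0.0652), macro-metastatic replicate 2 (0.427) or control replicate 1 (0.0935), and the second passed in 3 of 14 alternatives. In macrophages Slc7a2 measured 24.1 and 0 CPM in control livers, 2.07 and 26.4 CPM in pre-metastatic livers and 13.2 and 44.1 CPM in macro-metastatic libraries, with overlap and no call (1.36, adjusted p = 0.618, edgeR). In Kupffer cells the difference from control was -1.10 (adjusted p = 0.0820, edgeR). In B cells the UMI ratio of macro-metastatic to control was 0.129 (0.0251 to 0.417), from 3 and 28 UMIs. In neutrophils controls held 2 Slc7a2 UMIs, and the UMI ratio of macro-metastatic to control was 0.574 (0.150 to 4.89).

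Ido1, the tryptophan dioxygenase, and Il4i1, the secreted amino acid oxidase, were scarce. In dendritic cells Ido1 had 3 and 1 UMIs in control livers, 4 and 7 in pre-metastatic livers and 3 and 20 in macro-metastatic libraries, or 4.44 and 1.09, 1.48 and 2.20, and 1.20 and 5.88 CPM. The groups overlapped, and the difference between macro-metastatic and control was 0.66 (adjusted p = 0.710, edgeR). Type 1 dendritic cells held 32 of the 38 UMIs, mature cells 5 and type 2 cells 1, where 1184, 142 and 419 cells were in these subsets. Per UMI the order differed, with 3.41 CPM in type 1, 5.80 CPM in mature and 0.362 CPM in type 2 cells over all libraries. Neutrophils and hepatocytes held no Ido1 UMI. In dendritic cells Il4i1 had 6 and 2 UMIs in control livers, 5 and 2 in pre-metastatic livers and 6 and 18 in macro-metastatic libraries, with a difference between macro-metastatic and control of -0.25 (adjusted p = 0.875, edgeR). Mature dendritic cells held 21 of its 39 UMIs, type 2 cells 8, type 1 cells 6 and cells of no subset 4. The Il4i1 UMI ratio was 3.41 (1.42 to 9.37) for macro-metastatic over pre-metastatic and 0.237 (0.0732 to 0.749) for pre-metastatic over control dendritic cells, and neither difference passed over libraries (adjusted p = 0.180 and 0.512, edgeR).

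Genes that work beside the members were followed in 6 lists. At most 3 called genes are named per list, class and comparison. A gene may thus also have been called in a class not named for it. Of all genes tested, 5.44% were higher and 1.89% lower in macro-metastatic than in control macrophages, and 5.34% and 4.48% in neutrophils. These shares were 19.2% and 15.9% in Kupffer cells, 8.11% and 3.27% in dendritic cells and 6.87% and 4.98% in hepatocytes. The list counts of macro-metastatic against control, here and below, stand beside these shares and were not tested against them. In Kupffer cells, where calls were frequent, 6 of 19 tested genes of the arginine, urea cycle and polyamine list were higher in macro-metastatic than in control livers and 4 lower (median 0.10, against 0.01 over all genes). In macrophages the list had 4 higher and 1 lower of 17 (0.08), in neutrophils 2 and 1 of 12 (0.29), in dendritic cells 6 and 1 of 17 (0.25) and in hepatocytes 0 and 4 of 16 (-0.58). Odc1, which makes putrescine from the ornithine that arginases release, rose in 3 classes: in macrophages to 247 ± 22.7 CPM against 64.7 ± 8.08 CPM (1.93 ± 0.21, adjusted p = 0.00712), in Kupffer cells to 244 ± 78.7 against 62.5 ± 1.00 CPM (1.96 ± 0.21, adjusted p = 0.000269) and in dendritic cells to 508 ± 73.4 against 177 ± 15.2 CPM (1.53 ± 0.17, adjusted p = 0.00301; SD of 2 libraries, edgeR). Asl, the argininosuccinate lyase, rose in macrophages (3.16, adjusted p = 0.0273) and Kupffer cells (2.13, adjusted p = 0.000260, edgeR). Azin1, which blocks the degradation of Odc1, rose in macrophages (1.01, adjusted p = 0.0339) and neutrophils (1.51, adjusted p = 0.0135, edgeR). Ass1, the argininosuccinate synthase, and Slc7a1, an arginine transporter, rose in dendritic cells (1.79 and 1.52). Oaz1, the antizyme, rose in neutrophils (0.94).

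The urea cycle gene Cps1, a hepatocyte enzyme, fell in hepatocytes (-2.88 ± 0.65, adjusted p = 0.000305, 287 ± 293 against 2605 ± 588 CPM) and also in Kupffer cells (-2.79, adjusted p = 0.000530) and neutrophils (-4.32, adjusted p = 0.00634, edgeR), at 2.28 against 15.8 CPM and 2.04 against 42.7 CPM. Hepatocyte markers in the same neutrophils summed to 123 and 233 CPM in macro-metastatic and 2465 and 795 CPM in control libraries. The part of free hepatocyte RNA in the neutrophil and Kupffer values of Cps1 was not tested. Oat and Ddah1 also fell in hepatocytes (-2.13 and -1.47).

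Of the nitric oxide cofactor list, 2 of 10 genes rose in macrophages (median 0.56), 2 of 7 in neutrophils (0.93), 4 of 12 in Kupffer cells with 1 lower (0.39), 1 of 10 in dendritic cells (0.55) and 2 of 9 in hepatocytes (-0.63). Gch1, the rate-limiting enzyme of the tetrahydrobiopterin that nitric oxide synthases need, rose in macrophages (0.91, adjusted p = 0.0474), Kupffer cells (1.65 ± 0.13, adjusted p = 5.93e-05, 97.1 ± 3.85 against 31.03 ± 2.34 CPM) and dendritic cells (1.05, adjusted p = 0.0357, edgeR). Sod2, the mitochondrial superoxide dismutase, rose in macrophages (1.32), neutrophils (1.90) and Kupffer cells (1.63), and Cyba, a subunit of the phagocyte oxidase, in Kupffer cells (1.49). In hepatocytes Cybb (3.12) and Gchfr (1.73) rose.

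In the tryptophan and kynurenine list, 3 of 12 genes rose in macrophages (median 0.10), 3 of 9 in neutrophils (1.18), 3 of 16 in Kupffer cells with 4 lower (-0.48), 2 of 12 in dendritic cells with 1 lower (0.52) and 3 of 17 in hepatocytes with 2 lower (-1.04). Slc3a2, the heavy chain of the large neutral amino acid transporter, rose in all 5 classes, by 1.46 in macrophages, 1.70 in neutrophils, 0.92 in Kupffer cells, 1.39 in dendritic cells and 1.798 in hepatocytes. Tiparp, a target of the aryl hydrocarbon receptor, also rose in all 5, by 1.22, 1.18, 1.60, 1.71 and 3.201 in the same order of classes. Wars, the tryptophanyl-tRNA synthetase, rose in macrophages (2.41) and Kupffer cells (1.78). Slc7a5, the light chain, had no UMI in control neutrophils and 25.6 ± 6.56 CPM in macro-metastatic ones (adjusted p = 0.0281, edgeR). Kynu, the kynureninase, fell in dendritic cells (-1.41, adjusted p = 0.0142, 18.2 ± 1.81 against 47.9 ± 11.4 CPM, edgeR), and Aadat, an aminotransferase of kynurenine, fell in hepatocytes (-2.33).

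The itaconate and tricarboxylic acid cycle list had 1 of 18 genes higher in macrophages (median 0.30), 0 higher and 1 lower of 14 in neutrophils (0.24), 8 of 19 higher in Kupffer cells (0.32), 3 of 19 higher in dendritic cells (0.36) and 2 higher and 2 lower of 19 in hepatocytes (-0.68). Sdhb, a subunit of the succinate dehydrogenase that itaconate inhibits, rose in macrophages (1.46, adjusted p = 0.0215), Kupffer cells (1.73 ± 0.14, adjusted p = 5.91e-05) and dendritic cells (2.12, adjusted p = 0.00279, edgeR), and measured 74.6 ± 4.72 against 22.5 ± 0.60 CPM in Kupffer cells. Idh2 (0.96) and the dicarboxylate carrier Slc25a10 (2.89) rose in Kupffer cells. Atf3, a stress-induced transcription factor that itaconate can induce, fell in neutrophils (-1.46, adjusted p = 0.0116, 202 ± 37.7 against 558 ± 16.6 CPM), rose in dendritic cells (0.83, adjusted p = 0.0387) and rose in hepatocytes (5.45, adjusted p = 2.04e-20, edgeR). Suclg1, a subunit of succinyl-CoA ligase, fell in hepatocytes (-1.87).

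Among known inducers, 5 of 24 were higher and 1 lower in macrophages (median 0.15), 6 and 2 of 22 in neutrophils (0.58), 13 and 1 of 24 in Kupffer cells (0.48), 6 and 1 of 24 in dendritic cells (0.32) and 10 and 0 of 21 in hepatocytes (2.01). Il4ra, the receptor chain through which interleukin-4 and interleukin-13 induce Arg1 in macrophages, rose in macrophages (4.81 ± 0.59, adjusted p = 0.00911), neutrophils (2.36, adjusted p = 0.00669), Kupffer cells (3.79 ± 0.18, adjusted p = 1.89e-05) and dendritic cells (3.26, adjusted p = 0.00221, edgeR). The NF-kB subunit gene Rela rose in macrophages (2.93) and Kupffer cells (3.18), Stat3 in Kupffer (2.34) and dendritic cells (1.32) and Csf2rb, the shared beta chain of the granulocyte-macrophage colony stimulating factor receptor, in macrophages (1.49) and dendritic cells (1.82). In neutrophils Cebpd and Klf6 fell (-1.93 and -1.41). In hepatocytes Irf1 (3.72), Klf4 (4.23) and Tlr2 (6.30) rose, in the same 12 and 52 cells that held neutrophil markers at 4415 and 2395 CPM, against 33.5 and 22.0 CPM in control hepatocytes.

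Of the alternative activation list, 2 of 15 genes were higher in macrophages (median 0.31), 2 of 11 in neutrophils with 1 lower (1.43), 9 of 16 in Kupffer cells with 1 lower (1.31), 3 of 14 in dendritic cells (0.72) and 4 of 7 in hepatocytes (2.19). This list holds Cd163, Fn1 and Clec10a, which are markers of the Kupffer, macrophage and dendritic gates. Its counts and medians thus include genes by which the cells were assigned. Il10, the anti-inflammatory cytokine, measured 135 ± 24.1 against 1.305 ± 1.85 CPM in macrophages (6.65 ± 0.61, adjusted p = 0.00573), 235 ± 26.4 against 13.6 ± 1.76 CPM in Kupffer cells (4.10 ± 0.17, adjusted p = 1.31e-05) and 13.7 ± 8.78 against 0.738 ± 1.04 CPM in dendritic cells (4.34 ± 1.10, adjusted p = 0.0416, edgeR). Tgm2, a transglutaminase induced by interleukin-4, rose in Kupffer cells (1.94), dendritic cells (2.38), neutrophils (1.43) and hepatocytes (2.19). Vegfa rose in macrophages (1.39) and dendritic cells (3.13), and Socs2 in Kupffer cells (1.74). Egr2 fell in neutrophils (-2.64 ± 0.22, adjusted p = 0.000364, edgeR, 62.9 ± 11.7 against 391 ± 2.66 CPM). Cd163, a marker of the Kupffer gate, rose in neutrophils (2.26), and the part of stray Kupffer RNA in that value was not tested. Mrc1 (2.72) and Cd163 (3.59), genes of macrophages, rose in hepatocytes, where Kupffer markers summed to 2126 and 987 CPM in macro-metastatic and 180 and 146 CPM in control libraries.

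Against pre-metastatic livers, the arginine list had 5 genes higher and 1 lower of 17 in macro-metastatic macrophages, 3 and 1 of 12 in neutrophils, 6 and 3 of 19 in Kupffer cells, 6 and 1 of 17 in dendritic cells and 1 and 2 of 16 in hepatocytes. Of all genes, 7.27% were higher and 1.64% lower in macrophages, 5.24% and 4.22% in neutrophils and 17.6% and 13.6% in Kupffer cells. In dendritic cells the shares were 9.6% and 3.92%, and in hepatocytes 4.69% and 2.44%. Odc1 was higher in macrophages (1.44), neutrophils (1.27), Kupffer cells (1.57) and dendritic cells (1.503), Sdhb in the same 4 classes (1.63, 1.76, 1.79 and 1.74) and Il4ra likewise (2.61, 1.74, 2.83 and 2.54).

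Between pre-metastatic and control livers, 0 of the list genes passed in macrophages (96 tested), neutrophils (75) and dendritic cells (96) in edgeR, with 12, 7 and 13 at an unadjusted p under 0.05 and 0, 1 and 2 with DESeq2. In macrophages, neutrophils and dendritic cells 0.0% of all genes passed. In Kupffer cells 2 of 106 list genes passed in edgeR, against 0.308% of all genes, and in hepatocytes 12 of 89, against 3.9%. With DESeq2, 12 of the 106 passed in Kupffer cells and 0 of the 89 in hepatocytes. Of all genes, DESeq2 called 233 of 13004 in Kupffer cells and 90 of 9168 in hepatocytes. The hepatocyte genes named next therefore passed in edgeR only. In Kupffer cells, Il10 rose by 2.11 ± 0.16 (adjusted p = 0.00509) and Csf2rb by 1.89 ± 0.22 (adjusted p = 0.0249, edgeR). In hepatocytes, Asl (-1.04) and Idh2 (-1.09) fell, and Atf3 (2.16), Tlr2 (2.97), Myd88 (1.10), Csf2rb (2.29), Tiparp (1.10), Ddc (0.94), Ccl24 (2.26) and Cd163 (1.805) rose. In these hepatocytes macrophage markers summed to 1186 and 827 CPM in pre-metastatic and 563 and 384 CPM in control libraries, and neutrophil markers to 86.6 and 110 CPM against 33.5 and 22.0 CPM, and their part in these values was not tested.

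Profiles of other genes were set beside each member over 24 profiles, the neutrophil, macrophage, Kupffer and dendritic sums of the 6 libraries, using log2(CPM + 1) and 5886 genes with a mean of at least 20 CPM. The points share libraries and depth, so the correlations are descriptions. Arg2 was most like C5ar1 (Pearson r = 0.975), Cd300lf (0.967) and Slc28a2 (0.957). Acod1 was most like Litaf (0.956), Il1rn (0.953) and Slfn4 (0.952). For Arg1 the closest were Stam2 (0.597), Mpo (0.581) and Eepd1 (0.576), and for Slc7a2 1700123O20Rik (0.578), Stam2 (0.559) and Ctps2 (0.537), none of them close. Arg2 and Acod1 correlated with each other at 0.836, and Arg1 and Slc7a2 at 0.698. Nos2, Ido1 and Il4i1 averaged under 5 CPM and were not compared.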

How the data were processed

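The deposited files were matrices of UMI counts per gene and barcode, 1 per library. The submitters' processing notes name CASAVA 1.8, UMI-tools and the build mm10; aligner and annotation were not given in the sources used here. In the authors' counts, 71908 barcodes had at least 500 UMIs each. Those with 300 genes or more and mitochondrial UMIs below 25% numbered 66935, and 1843 predicted doublets (2.75%) were removed. Cells were assigned by marker gate (at least 3 own markers, score at least 0.1 and 1.3 times the next), and 93.4% of those in the 5 classes fell in a Leiden cluster of the same name (scanpy 1.11.5).

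UMI counts were summed per library and class and tested with edgeR 4.0.16 in R 4.3.3 (quasi-likelihood, filterByExpr, TMM), all 6 libraries together with 3 residual degrees of freedom. Of 117 interaction tests on members, 5 passed. The test was checked on simulated counts. Alternatives were DESeq2 1.42.0 and those in the closing section. All 7 members are named, and up to 3 called genes per list, class and comparison, by smallest adjusted p, apart from some list genes that are counted but not reported by name here. Members and lists were chosen with earlier results of these data known. Replicate numbers named samples and were not taken as pairs.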

Additional observations from a re-analysis of the deposited data

Results flagged for a closer look

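The change differed between classes for 3 members in the interaction test of edgeR, and the causes were not tested. Between macro-metastatic and control livers, the Arg1 change in macrophages minus that in B cells was 5.41 on the log2 scale (adjusted p = 0.0470), and the change in Kupffer cells minus that in B cells was 2.41 (adjusted p = 0.0281). Arg1 in B cells was itself lower in macro-metastatic libraries, with 6 UMIs against 18 in control libraries (UMI ratio 0.401, 0.130 to 1.05). The Acod1 change in neutrophils minus that in B cells was -2.47 (adjusted p = 0.0431), with 3 Acod1 UMIs in control B cells. Acod1 stood at 1.34 to 113 CPM in B cells and at 960 to 6419 CPM in neutrophils, so this difference does not measure background in neutrophils. Arg2 changed more in macrophages than in neutrophils (1.92, adjusted p = 0.0456), and between macro-metastatic and pre-metastatic livers it changed less in neutrophils than in Kupffer cells (-0.99, adjusted p = 0.0210).

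A signal also stood in cells that no comparison used. Cells in the basophil and mast cell gate, 52 and 114 in the macro-metastatic libraries, held Acod1 at 7776 and 5500 CPM, against 294 and 242 CPM in the 23 and 43 control cells. Per 1000 neutrophil-marker UMIs they held 654 and 474 Acod1 UMIs, where neutrophils of the same libraries held 64.8 and 49.5. A cluster of 420 cells, 417 of them from macro-metastatic replicate 2 and led by Krt20, Wnt10a, Dok6 and Rhox5, held 65 Ido1 UMIs, or 15.3 CPM in that library, in 10.1% of its cells. It was left unnamed.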

How the results depend on the processing

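No called result changed direction under the alternatives run. Acod1 in neutrophils and Acod1 and Arg2 in Kupffer cells (macro-metastatic against control) stayed called in all 15 alternatives. Acod1 in hepatocytes was called in all 14 run there, which supports nothing. Control hepatocytes held 0 UMIs, and the gene passed the filter through the metastatic libraries, where it was higher. Counts of members called moved with the setting. The percentages over all genes given above belong to the main analysis. Counts under other settings are not set beside such a share and describe the members only. Macro-metastatic against control, 9 were called in the main analysis, 11 with DESeq2 and 5 to 11 when 1 library was left out, with 5 without control replicate 1. Pre-metastatic against control, 2 were called, 5 with DESeq2, 8 without the filter on low counts and 0 to 2 when 1 library was left out, with 0 without control replicate 1. Macro-metastatic against pre-metastatic, 8 were called, 13 without the filter and 3 to 6 when 1 library was left out: 5 without macro-metastatic replicate 1, 4 without macro-metastatic replicate 2, 3 without pre-metastatic replicate 1 and 5 without either control replicate. The causes were not tested, except that a library left out leaves 1 sample in its group, assumed to vary like the other groups, and fewer samples in the fit. Without the filter the fit used infinite prior degrees of freedom in all 5 classes.

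Whether the replicate numbers pair the libraries cannot be settled here. Deviations of same-numbered libraries correlated between -0.14 and 0.44 over classes and comparisons, from 2 numbers only. In neutrophils they were all positive, at 0.135, 0.143 and 0.437. As given above, Acod1 (pre-metastatic against control) and Nos2 (macro-metastatic against control) in neutrophils passed in the blocked fit and not in the main one. With the replicate block 9, 3 and 7 members were called in the 3 comparisons (macro-metastatic against control, pre-metastatic against control, macro-metastatic against pre-metastatic), and Arg2 in dendritic cells lost its call (2.12, adjusted p = 0.051). Of the 5 interaction calls, Arg1 in macrophages against B cells held in 8 of 12 alternatives, Acod1 in neutrophils against B cells in 8, Arg1 in Kupffer cells against B cells in 7, Arg2 in macrophages against neutrophils in 9 and Arg2 in neutrophils against Kupffer cells in 8. Thinning to 2000 instead of 1000 UMIs left 136 of 210 shares within their interval and moved 74. Depth limits Nos2, Ido1 and Il4i1 outside the cells named, and all values of macro-metastatic hepatocytes.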

Other observations

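A cluster of 1207 cells named macrophage, led by Alox15, Cbr2, Ccl8, Gpnmb and Trem2, held Arg1 at 588 and 2708 CPM in macro-metastatic replicates 1 and 2. Of its cells, 414 met no gate, and these held 5204 Arg1, 1620 Arg2 and 241 Slc7a2 UMIs that the macrophage values do not include.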
